A study of Mus musculus with 12 samples.

Results

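Emx1, Emx2, Tbr1, Neurod6, Lhx2, Dlx1, Dlx2 and Nr2e1 are 8 transcription factor genes of the developing and adult forebrain. They were chosen because earlier results on these arrays had shown them far lower in 1 library labelled hippocampus than in the other 11. All array probes carrying one of these names were taken, which gave 9 of 55681 non-control probes, 2 of them for Tbr1. All 8 genes were among the 24202 that entered the fit over circadian time, each with a signal well above background in all of the other 11 libraries. The choice rested on the level in the library titled Hipp11_WT_ct12, called the library labelled CT12 mouse 11 here, so its difference from the others is described and not tested.

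By its label the RNA came from the hippocampus of 12 adult male wild-type mice kept in constant darkness, 1 mouse per 1-colour Agilent array. There were 3 mice at each of 4 circadian times. CT18 was reached after 30 hours of darkness, CT0 after 36, CT6 after 42 and CT12 after 48. Circadian time and time in darkness are therefore confounded in every comparison over time. The series asked which hippocampal genes follow a circadian rhythm. All mice shared genotype, sex, tissue label and lighting; their strain and exact age were not stated in the labels.

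The telencephalon is the front part of the embryonic forebrain that forms the cerebral cortex, the hippocampus and the basal ganglia. Its dorsal wall, the pallium, produces glutamatergic neurons, and its ventral wall produces GABA neurons that migrate into the cortex and hippocampus. Emx1, Emx2 and Lhx2 are homeodomain factors that pattern the pallium and are required for a normal hippocampus. Tbr1, a T-box factor, and Neurod6, a basic helix-loop-helix factor, act in newly formed glutamatergic neurons and remain on in the adult. Dlx1 and Dlx2 are paralogous homeodomain factors of GABA neurons from the ventral wall, and Nr2e1 is an orphan nuclear receptor that maintains neural stem cells.

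Each probe is a DNA oligonucleotide of 60 bases, and its position in the genome is that given in the scanner files on mm9. Below are the first 30 bases, 5′ to 3′, of the probes of the 2 paralogous pairs and of both Tbr1 probes, since the comparison of paralogs and of probes rests on them.
Emx1: aatgactaggggaacaatcaagagcccaca
Emx2: ttgtcgggcgaatggtgtctaaaaactgaa
Dlx1: gttgtcaaaaacgtttggacaagaacacct
Dlx2: gatttgaatttgtttttatcttgtcctaaa
Tbr1, brighter probe: ccactgagaatcgttttgttttctgctcgt
Tbr1, dimmer probe: ttaacatttctggtctcgatcccaccgctc
The Emx1 probe lies on chromosome 6 at 85154062 to 85154121 and the Emx2 probe on chromosome 19 at 59539142 to 59539201. The Dlx1 probe (chromosome 2, 71371499 to 71371558) and the Dlx2 probe (71381553 to 71381612) are 9994 bases apart on the same chromosome. Of the Tbr1 probes, the brighter lies on chromosome 2 at 61652093 to 61652152 and the dimmer at 61644054 to 61644113. The exon or untranslated region that each probe matches was not analysed here.

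The library labelled CT12 mouse 11 stood apart over the whole array. Taken over 24202 genes (genes are no independent replicates), it correlated at 0.946 to 0.965 with each of the others, whereas any pair of those 11 reached 0.983 or more. Its signal was not weak: 63.6% of its non-control spots lay well above background, within the range of 59.3% to 77.1% for all 12 arrays. The arrays lay on 3 slides with 1 array per circadian time each, and each time kept 1 position on the slide, so that position and time are confounded. CT0 mouse 1 had a local background of 100 against 25 to 37 elsewhere. The extraction quality result was Evaluate for that array and InRange for all others.

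All 8 genes had their lowest value of the 12 libraries in CT12 mouse 11, and the gap to the next library was larger than the whole range of the other 11 for every gene. Values are log2 intensity minus the array's 75th percentile, so that 0 is the level of a fairly bright probe. In that library 5 genes (Emx1, Emx2, Dlx1, Dlx2 and Nr2e1) were not well above background, and 3 (Tbr1, Neurod6 and Lhx2) still were. The word missing therefore holds at most for the first 5, for which a fold is a lower bound. The bound sets a dim probe at the level of the dimmest probe that was well above background on that array (-5.90), unless the dim probe itself read higher, as Nr2e1 did. Since Nr2e1 read -5.35 and was still not well above background, that limit differed between probes. The bounds are therefore nominal. The 8 genes were all at least 4-fold lower than the mean of the other 11 libraries, as were 2.34% of all genes, and all 8 lay below every other library, as did 30.1% of all genes. The choice of the genes fixed these counts. Ranked from the lowest difference over 24202 genes, Tbr1 was at place 13, Emx1 16, Nr2e1 18, Dlx1 25, Dlx2 38, Neurod6 41, Lhx2 53 and Emx2 57, with bounds for the dim genes.

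Among the pallial homeodomain genes, Emx1 ranged from -0.38 to 0.63 in the other 11 libraries with a median of 0.11. In CT12 mouse 11 it was not well above background, with a processed signal of 5.34 intensity units against 378 to 619 elsewhere. It was at least 65.8-fold lower than the mean of the 11 (0.14 ± 0.26, SD, n = 11). Emx2 ranged from -1.82 to -0.91 with a median of -1.46 in the 11 and was at least 22.4-fold lower in CT12 mouse 11 (mean of the 11 -1.41 ± 0.25, SD). The smaller bound of Emx2 goes with its dimmer signal elsewhere, 110 to 242 intensity units, which leaves less room above background. Lhx2, a LIM-homeodomain gene, ranged from 3.44 to 4.21 with a median of 4.002 in the 11. Its value in CT12 mouse 11 was -0.53, which is well above background, 23.0-fold below the mean (3.996 ± 0.22, SD, n = 11) and 4.35% of it.

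The genes of postmitotic glutamatergic neurons showed a residual signal too. The brighter Tbr1 probe ranged from 2.54 to 3.74 in the 11 libraries with a median of 3.39 and stood at -3.31 in CT12 mouse 11. That is 98.9-fold below the mean of 3.32 ± 0.35 (SD, n = 11), or 1.01% of it, and still well above background. The dimmer Tbr1 probe ranged from -2.63 to -1.73 and was not well above background in CT12 mouse 11, which gives at least 13.4-fold. Both probes put the same library lowest by far; the second gives only a bound. Neurod6 ranged from 2.09 to 3.02 with a median of 2.82 in the 11 and stood at -2.16 in CT12 mouse 11. This is 30.3-fold below its mean of 2.76 ± 0.25 (SD, n = 11), or 3.29% of it.

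The GABA neuron factors and the stem cell receptor were not well above background in CT12 mouse 11. Dlx1 ranged from -1.05 to -0.15 with a median of -0.50 in the 11 libraries, and was at least 40.8-fold lower than their mean (-0.54 ± 0.22, SD). Dlx2, its neighbour on chromosome 2, ranged from -1.29 to -0.71 with a median of -0.84 and was at least 31.9-fold lower (mean -0.90 ± 0.19, SD). Nr2e1 was the steadiest of the 8 across the 11 libraries, from 0.38 to 0.77 with a median of 0.66 (mean 0.65 ± 0.11, SD), and at least 63.9-fold lower in CT12 mouse 11. The differences were of similar size against narrower references. Against CT12 mice 10 and 12 alone the folds or bounds of the 8 genes ran from 18.4 to 87.5, and against the 3 other libraries on the same slide from 22.9 to 114.

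**Figure D1:**
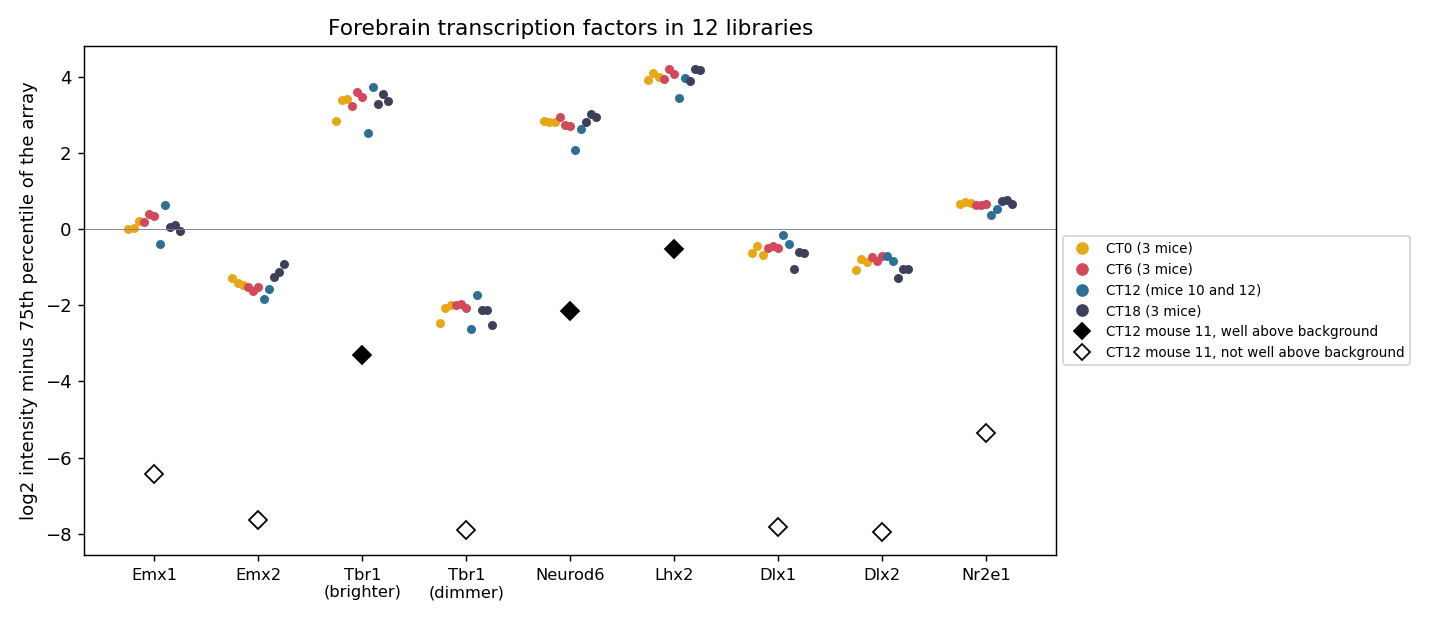
Log2 intensity minus the array's 75th percentile (vertical axis) for the 9 probes of the 8 genes (horizontal axis) in the 12 libraries. Points are single mice coloured by circadian time, and diamonds are CT12 mouse 11, open where the probe was not well above background; every diamond lies below all points of its probe, with Tbr1 (brighter probe), Neurod6 and Lhx2 filled.

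Other telencephalic transcription factors were low in the same library, though not all. Of 21 measured genes in that list, which leaves out the 8, 12 were at least 4-fold below the mean of the other 11 libraries and 0 were 4-fold above it, with a median difference of -2.51 on the log2 scale (dim genes at their bound) against -0.06 over all genes. Fezf2, a zinc finger gene of deep-layer cortical neurons, was at least 158-fold lower, and the antisense transcript Dlx6os1 at least 50.4-fold. Members of the list that differed little were Meis2 (0.03), Sox5 (-0.39), Lhx6 (-0.44) and Prox1, a factor of dentate granule cells (-0.76, all log2 differences). Of these 4, Meis2 and Lhx6 lay within the range of the other 11 libraries, and Sox5 and Prox1 lay below it.

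Factors that are also used by neurons of the cerebellum went both ways. Of 10 such genes, 2 were 4-fold lower (Bcl11a by 2.72 and Mef2c by 2.08 on the log2 scale) and 3 were 4-fold higher: Eomes by 3.74, Neurod1 by 3.44 and Pax6 by 2.75. Neurod2, a relative of Neurod6, differed by -0.48. Of the 3 Neurod genes measured, Neurod6 was therefore far lower, Neurod1 higher and Neurod2 within the range of the other 11 libraries.

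Transcription factors of the midbrain and hindbrain were mostly higher. Of 30 listed, 9 passed the filter, which required signal on every array of at least 1 circadian time among the 11 other libraries. Of these 9, 6 were 4-fold higher and 0 were 4-fold lower, with a median difference of 3.02. En2, an engrailed factor of the midbrain and cerebellum, was 6.50 higher on the log2 scale, Zic1 4.99 and Lhx1, a LIM-homeodomain relative of Lhx2, 4.19. Barhl1 was only 0.78 higher, and Lmx1b differed by -0.65 and lay below every other library. A further 16 of the 21 genes that the filter removed were well above background in CT12 mouse 11, among them Gbx2, Pax2 and Hoxa5, a Hox gene of the caudal hindbrain and spinal cord. For comparison, 63.6% of all non-control spots were well above background in this library. The same share among all genes that the filter removed was not computed. The levels of these 16 genes in the other 11 libraries are not given, so the count is only a description. Over all genes 1.4% were at least 4-fold higher in this library. The 6 measured thalamic and hypothalamic factors had a median difference of 1.36, with 2 at least 4-fold higher and 0 at least 4-fold lower. Their medians in the other 11 libraries ran from -0.46 to 1.14.

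Genes used as cell type markers were compared in the same library. Of 20 genes of forebrain excitatory neurons 15 were 4-fold lower (median -3.21), led by Crym (-9.39), Ddn, a postsynaptic gene (-8.08), and Rgs14, a CA2 signalling gene (-6.89), while Calb1, a calcium buffer also abundant in Purkinje cells, was 2.53 higher. Genes of all neurons had a median of 0.00, with 0 of 12 at 4-fold in either direction. GABA neuron genes split, with 4 of 18 at least 4-fold lower and 2 at least 4-fold higher. The synthesis enzymes Gad1 (0.28) and Gad2 (0.22) differed little, whereas Cort (-4.24), Vip (-3.00), Cck (-2.81) and Htr3a (-2.76) were lower and Pvalb (3.33) and Calb2 (2.91) higher. Cerebellar granule cell genes had a median of 3.44 (8 of 11 at least 4-fold higher), with Gabra6 and Cbln3 left out by the filter but well above background there. Purkinje cell genes had a median of 3.07 (8 of 10 at least 4-fold higher), led by Pcp2 at 8.96 and Car8 at 6.83. In the other 11 libraries the list medians ran from -0.15 to 0.08 for granule cell genes, from -0.20 to 0.22 for Purkinje cell genes and from -0.45 to 0.30 for forebrain excitatory neuron genes. The label hippocampus stands against the excitatory neuron markers measured in this library. These lists were written with earlier results of these data known. The part of the cerebellar and hindbrain genes in the low values of the 8 genes was not tested.

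Glial and vascular genes differed less. Astrocyte genes had a median of 0.22, oligodendrocyte genes 0.68 and endothelial genes 0.06, with 0 of 10 genes at least 4-fold lower in each and 1 at least 4-fold higher, the astrocyte gene S100b (2.02). The 10 microglia genes had a median of -0.78 and all lay below the other 11 libraries. Choroid plexus genes had a median of 2.03 and blood genes 1.39 in CT12 mouse 11. In the other 11 libraries choroid plexus medians ran from -1.83 to 3.89 and blood medians from -0.39 to 0.56. Neural stem cell genes had a median of -0.44: 1 of 16 was at least 4-fold lower (Thbs4, -5.12) and 1 at least 4-fold higher (Pax6, 2.75). Hes5, a Notch target, differed by -1.82, Sox2, a stem cell factor, by -0.44 and Vim, an intermediate filament gene, by 1.69. In bulk RNA fewer cells of a type and less RNA per cell cannot be told apart.

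**Figure D2:**
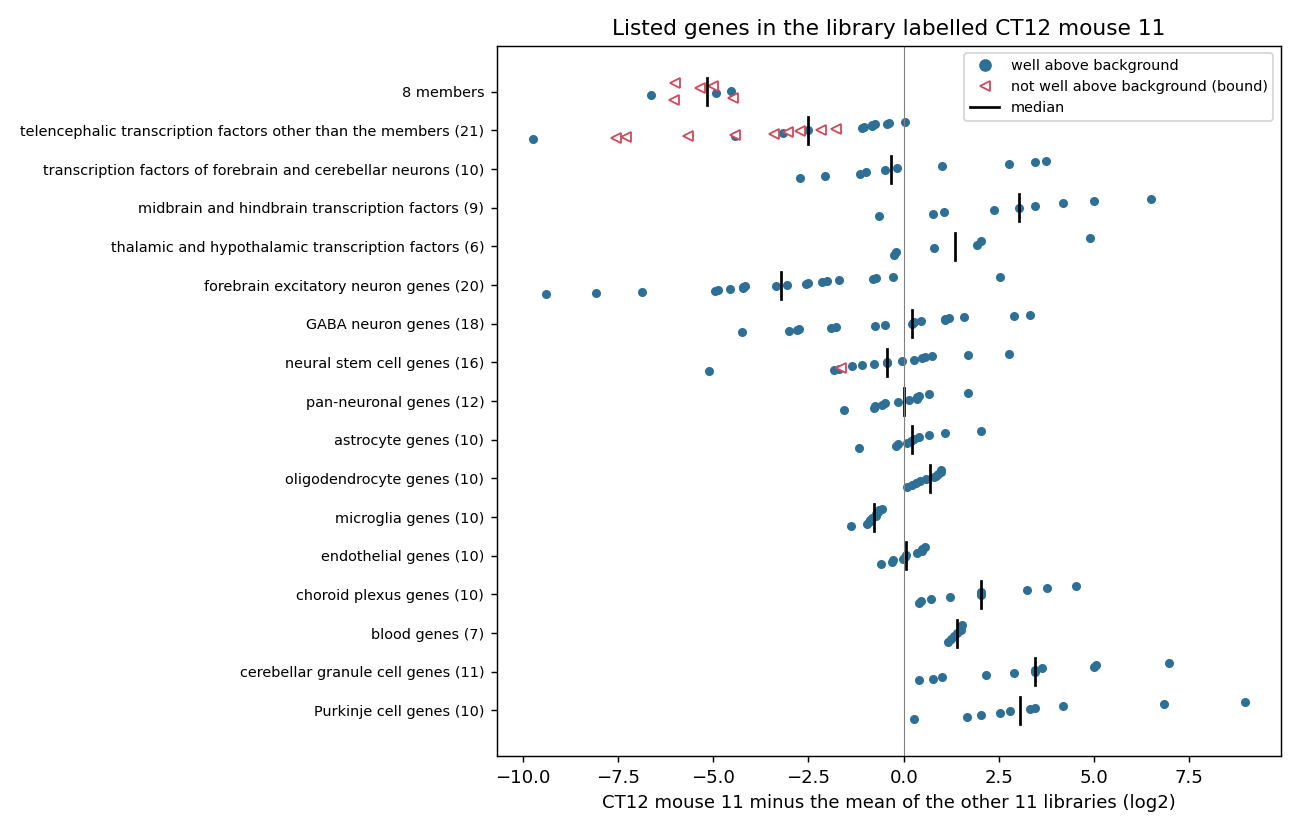
Difference of CT12 mouse 11 from the mean of the other 11 libraries on the log2 scale (horizontal axis) for the 8 genes and for 16 lists, with the number of measured genes in brackets. Points are genes, open triangles are genes not well above background that are drawn at their bound, and black bars are medians; the 8 genes lie between -6.63 and -4.49, beside a median of -3.21 for forebrain excitatory neuron genes and 3.44 for cerebellar granule cell genes.

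The genes most like the 8 were sought among 14324 others with a RefSeq symbol, by the correlation with the mean profile of the 8. Over all 12 libraries 49 genes exceeded a Pearson r of 0.99, and the closest included Crym, Icam5, an adhesion gene of telencephalic neurons, and Fezf2. That measure rests on 1 library, since no other spread is as large. Over the 11 other libraries the closest were Phyhip (0.98), Bcl11a (0.97), Npy (0.97), Rspo3 (0.96) and Ctxn1 (0.96). These 5 were all below their mean by 0.41 to 0.59 in CT12 mouse 10. In CT12 mouse 11 they differed unequally, from -4.36 for Ctxn1 to -0.17 for Phyhip.

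The second question was whether the 8 genes vary with circadian time. The library labelled CT12 mouse 11 was left out, which left 2 mice at CT12 and 3 at each other time. By limma's moderated F test over the 4 times, adjusted by Benjamini-Hochberg over 24202 genes, 0 of the 8 genes passed, against 65 genes or 0.269% of all. At an unadjusted p under 0.05 there were 5 of 8 (Emx2, Neurod6, Dlx1, Dlx2 and Nr2e1), where 12.2% of all genes reached that level. The highest and lowest time means of the 8 differed by 0.27 to 0.60 on the log2 scale, with a median of 0.38 against 0.25 over all genes. Leaving out CT12 mouse 10 leaves 1 mouse at CT12. The difference then fell for Emx2 (to 0.47), Neurod6 (0.30), Lhx2 (0.12), Dlx1 (0.37) and Nr2e1 (0.20). It stayed at 0.37 for Dlx2 and rose for Emx1 (to 0.58) and Tbr1 (0.51). The SD over the 11 libraries had a median of 0.24 for the 8 genes and 0.18 for all.

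For the 6 pairs of times the same fit called 0 of the 8 genes each. The shares of all genes called were 0% for CT6 against CT0, 0.0537% for CT12 against CT0, 0.0207% for CT18 against CT0, 0.0289% for CT12 against CT6, 1.22% for CT18 against CT6 and 0.504% for CT18 against CT12. A missed threshold does not show that levels were equal, so the intervals matter. Over the 8 genes and 6 pairs, the unadjusted 95% intervals reached no farther from 0 than 1.01 on the log2 scale, or 2.01-fold, for Tbr1. The farthest bound was 1.36-fold for Nr2e1, 1.54-fold for Dlx2, 1.68-fold for Emx1, 1.69-fold for Lhx2, 1.76-fold for Dlx1, 1.84-fold for Emx2 and 1.87-fold for Neurod6. Each of these is smaller than the difference of the same gene in CT12 mouse 11, but the genes were chosen for that large difference.

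Emx2 had the smallest p of the 8. Its values were -1.29, -1.42 and -1.46 at CT0, -1.52, -1.61 and -1.53 at CT6, -1.82 and -1.57 at CT12, and -1.26, -1.12 and -0.91 at CT18. All 3 CT18 mice lay above the other 8, the lowest of them (-1.26) only just above CT0 mouse 1 (-1.29). CT18 exceeded CT12 by 0.60 ± 0.12 (SE; adjusted p = 0.0723) and CT6 by 0.46 ± 0.11 (SE; adjusted p = 0.0906), and the F test gave an adjusted p of 0.148 (limma). Neither comparison passed.

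Dlx1 and Dlx2 were lowest at CT18. Dlx1 was at -0.63, -0.44 and -0.67 at CT0, -0.50, -0.45 and -0.49 at CT6, -0.15 and -0.38 at CT12, and -1.05, -0.60 and -0.63 at CT18. Dlx2 was at -1.08, -0.78 and -0.86 at CT0, -0.73, -0.83 and -0.71 at CT6, -0.71 and -0.84 at CT12, and -1.29, -1.04 and -1.04 at CT18. For both genes the 3 CT18 values lay below the 3 CT6 values. The 3 values at CT18 and the 3 at CT6 did not overlap for 4 of the 8 genes (Emx1, Emx2, Dlx1 and Dlx2) and for 22.8% of all genes, with Emx2 the higher at CT18 and the others the lower. CT18 minus CT6 was -0.37 ± 0.11 (SE) for Dlx2 (limma, adjusted p = 0.156) and -0.28 ± 0.13 for Dlx1 (0.397), and the F test gave adjusted p values of 0.339 and 0.396. Without CT18 mouse 14 the CT18 minus CT6 difference was -0.13 for Dlx1 (adjusted p = 0.661) and -0.28 for Dlx2 (0.335).

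Neurod6 was at 2.85, 2.82 and 2.83 at CT0, 2.94, 2.74 and 2.71 at CT6, 2.09 and 2.63 at CT12, and 2.81, 3.02 and 2.96 at CT18. Both CT12 mice were below all other 9. CT12 minus CT0 was -0.47 ± 0.15 (SE; limma, adjusted p = 0.418), -0.20 without CT12 mouse 10 (0.533) and -0.74 without CT12 mouse 12 (0.0959). Lhx2 was at 3.91, 4.10 and 4.002 at CT0, 3.96, 4.21 and 4.07 at CT6, 3.44 and 3.97 at CT12, and 3.89, 4.21 and 4.18 at CT18. Apart from CT12 mouse 10 its values spanned only 3.89 to 4.21. Its F test gave an adjusted p of 0.626 (limma), and its CT12 minus CT0 of -0.30 ± 0.17 (SE) became -0.03 without that mouse and -0.56 without CT12 mouse 12.

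Tbr1 and Emx1 had the widest spread at CT12. Tbr1 (brighter probe) was at 2.85, 3.39 and 3.43 at CT0, 3.23, 3.60 and 3.48 at CT6, 2.54 and 3.74 at CT12, and 3.28, 3.56 and 3.38 at CT18. Its CT12 mice were the lowest and the highest of the 11, and the F test gave an adjusted p of 0.939 (limma). Emx1 was at 0.01, 0.03 and 0.22 at CT0, 0.19, 0.40 and 0.35 at CT6, -0.38 and 0.63 at CT12, and 0.07, 0.11 and -0.04 at CT18, again with both extremes at CT12 (adjusted p = 0.912). Without CT12 mouse 10 the difference of CT12 from CT0 was 0.54 for Emx1 (adjusted p = 0.158) and 0.51 for Tbr1 (0.426), where with it the differences were 0.04 and -0.09. Without CT12 mouse 12 they were -0.47 (0.334) and -0.68 (0.505), so the sign depended on which CT12 mouse was kept. Nr2e1 was at 0.66, 0.73 and 0.69 at CT0, 0.65, 0.65 and 0.66 at CT6, 0.38 and 0.52 at CT12, and 0.74, 0.77 and 0.66 at CT18. Both CT12 values were the lowest of the 11, with CT12 minus CT0 at -0.24 ± 0.08 (SE; limma, adjusted p = 0.432) and -0.17 without mouse 10 (0.462).

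**Figure D3:**
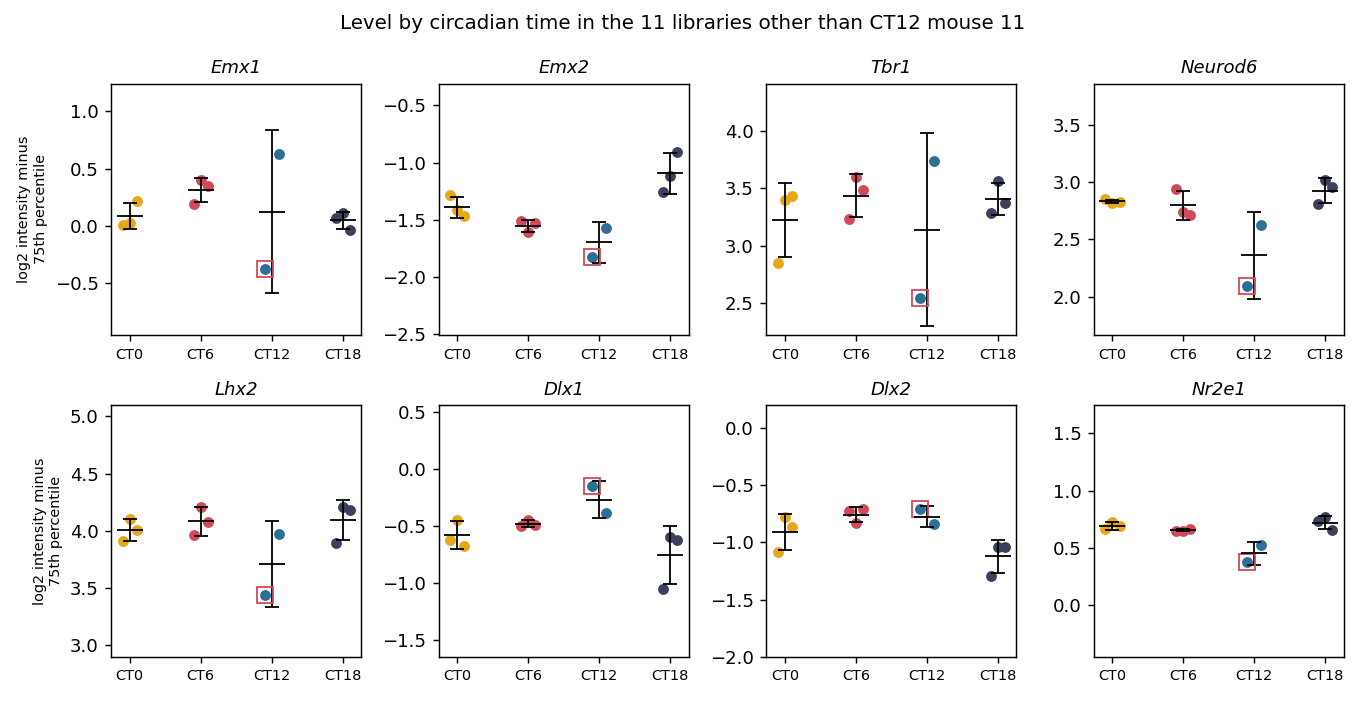
Log2 intensity minus the array's 75th percentile (vertical axes, each spanning 2.2 log2 units) by circadian time (horizontal axes) for the 8 genes in the 11 libraries other than CT12 mouse 11. Points are mice, black bars are means with SD (n = 3, and n = 2 at CT12), and red squares mark CT12 mouse 10, which is the lowest point for 6 genes and the highest for Dlx1.

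CT12 mouse 10 was the lowest of the 11 for Emx1, Emx2, Tbr1, Neurod6, Lhx2 and Nr2e1, at 58.4% (Tbr1) to 83.1% (Nr2e1) of their means. It was the highest of the 11 for Dlx1 at 131% of the mean, and Dlx2 stood at 114%. Over all genes this library was the lowest of the 11 for 18.7% and the highest for 7.79%. The 6 genes other than the Dlx pair had a median deviation of -0.54 in it, and between -0.07 and 0.23 in the other 10. In the same library the choroid plexus list stood at 3.38, thalamic and hypothalamic factors at 1.14, midbrain and hindbrain factors at 0.98 and forebrain excitatory neuron genes at -0.45, while the cerebellar granule cell list stood at 0.05. Their part in the low values was not tested.

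CT18 mouse 14 was the lowest of the 11 for both Dlx genes, with a median deviation of -0.45 for the pair and 0.00 for the other 6. CT18 mouse 15 was the highest for 3 genes (Neurod6, Lhx2 and Nr2e1) and CT12 mouse 12 for 2 (Emx1 and Tbr1). Over all genes these libraries were the highest of the 11 for 8.54% and 17.1%, in that order. CT18 mouse 14 was the lowest for 10.6% of all genes. The choroid plexus list was also high in CT18 mouse 14 (2.71), as it was in CT0 mouse 1 (3.89) and CT6 mouse 7 (2.76), where the Dlx pair deviated by -0.13 and 0.12. In CT12 mouse 10, where the list stood at 3.38, the Dlx pair deviated by 0.29. Any part of choroid plexus tissue in the Dlx values was not tested.

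**Figure D4:**
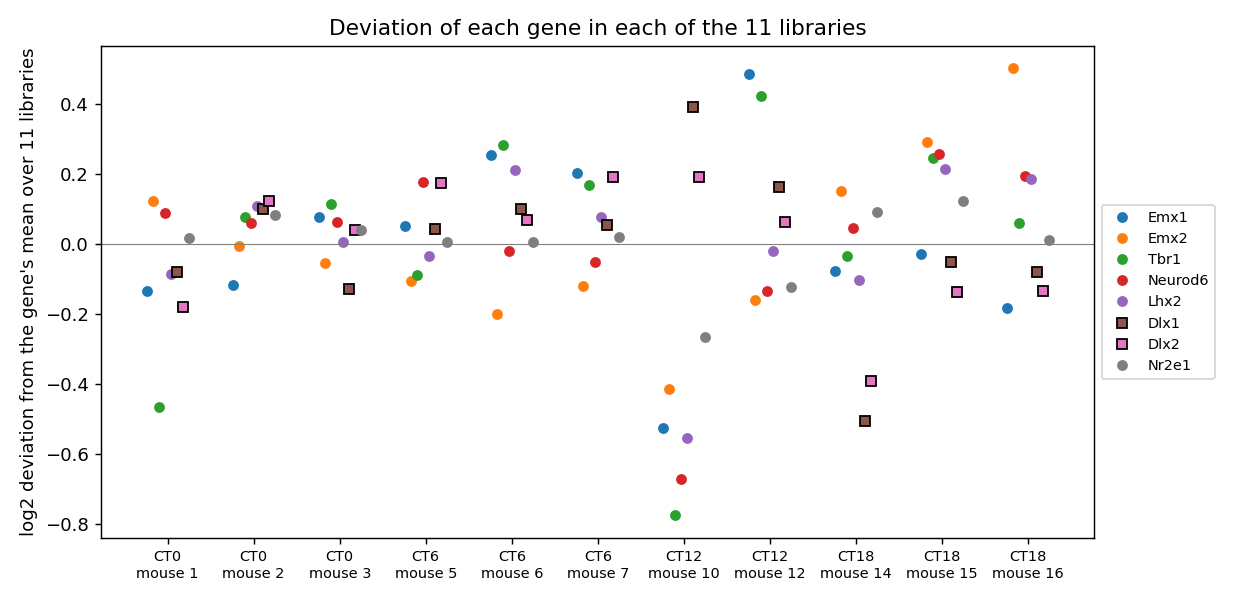
Log2 deviation of each of the 8 genes from its own mean over 11 libraries (vertical axis) in each of those libraries (horizontal axis). Round points are the 6 genes other than the Dlx pair and squares with a black edge are Dlx1 and Dlx2; in CT12 mouse 10 the round points lie between -0.78 and -0.27 and the squares above 0, and in CT18 mouse 14 the squares lie lowest.

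Keeping the library labelled CT12 mouse 11 in the fit gave far larger differences between CT12 and CT0. With all 12 libraries CT12 minus CT0 was between -2.29 (Emx2) and -1.71 (Lhx2) for the 8 genes. These differences rest on the library that chose the genes and are given with no test.

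Regions of 250 bases before annotated starts of the 8 genes were read from RefSeq (GRCm38.p6), since the genes were low together in 1 library. All 8 genes matched, with 9 starts in all because Lhx2 has 2. Not every region lies outside its gene. The Tbr1 region (chromosome 2, 61804203 to 61804452) lies inside the RefSeq span of the gene, which begins at 61802863. The Dlx1 region (chromosome 2, 71529195 to 71529444) also lies inside its gene, which begins at 71528113. Both Lhx2 regions reach into the span of Lhx2. The dinucleotide CG, the site of DNA methylation in mammals, occurred 3 to 30 times in the 9 regions with a median of 24, against a median of 6 over 32851 such regions. Shown 5′ to 3′ on the strand of the gene, with each CG in capitals, are the region richest in CG, 1 near the median and the poorest.
Emx1, chr6:85187681-85187930, plus strand: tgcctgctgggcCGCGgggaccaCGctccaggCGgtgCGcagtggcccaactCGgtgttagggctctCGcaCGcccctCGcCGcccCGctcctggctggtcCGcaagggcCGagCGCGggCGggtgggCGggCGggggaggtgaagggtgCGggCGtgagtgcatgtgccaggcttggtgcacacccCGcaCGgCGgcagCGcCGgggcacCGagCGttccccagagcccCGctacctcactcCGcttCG
Dlx2, chr2:71546755-71547004, minus strand: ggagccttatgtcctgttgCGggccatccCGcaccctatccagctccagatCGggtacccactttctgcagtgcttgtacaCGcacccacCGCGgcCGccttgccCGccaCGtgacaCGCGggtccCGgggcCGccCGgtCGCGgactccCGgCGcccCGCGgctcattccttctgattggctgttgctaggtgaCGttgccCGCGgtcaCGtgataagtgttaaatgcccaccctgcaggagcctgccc
Neurod6, chr6:55681264-55681513, minus strand: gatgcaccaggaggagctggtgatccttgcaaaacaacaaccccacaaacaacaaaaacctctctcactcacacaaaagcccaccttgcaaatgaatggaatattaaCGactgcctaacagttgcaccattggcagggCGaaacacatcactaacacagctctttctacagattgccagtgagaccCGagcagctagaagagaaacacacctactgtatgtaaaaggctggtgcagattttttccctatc
The counts were 30 for Emx1, 24 for Dlx2 and 3 for Neurod6, and Tbr1 had 5. The homeodomain core TAATTA, which reads the same on both strands, was present in 1 of the 9 regions and in 4.84% of all. That region was the one of Tbr1, which lies inside the gene. The E-box CAGATG was present on either strand in 0 of 9 and in 14.4% of all, TATAAA in 0 of 9 and 12.4%, the T-box motif AGGTGTGA in 0 of 9 and 1.12%, and the nuclear receptor motif AAGTCA in 0 of 9 and 13.1%. No methylation or binding was measured, and a match is a description of letters only.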

How the data were processed

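RNA from 12 samples with the tissue label hippocampus was labelled with Cy3 and hybridised to 1-colour Agilent arrays. Per the file headers, the deposited intensity values were background-subtracted and detrended within each array by Agilent Feature Extraction 10.7.3.1, with no scaling between arrays, and probe positions are on mm9. The authors also deposited a log2 value table whose normalization is not given in the sources used here; it served as an alternative. Spot flags (well above background, outlier) were used as deposited.

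Processed intensities were taken to log2 and each array's 75th percentile was subtracted. Outlier spots and control spots were left out, and spots of a probe were averaged. A probe was kept if well above background on every fitted array of at least 1 circadian time, and each gene was represented by its brightest probe on average. Genes were tested with limma 3.58.1 (R 4.3.3) on 11 libraries, without slide in the fit, with Benjamini-Hochberg adjustment over 24202 genes and a threshold of 0.05. The script was tested on simulated data. The genes and lists were chosen with earlier results of these data known. From each list up to 4 genes with the lowest and 4 with the highest difference were named; Neurod2, Sox2, Gad1, Gad2, Pax2, Gbx2, Hoxa5, Gabra6 and Cbln3 were chosen after their values were seen. Alternatives covered scaling, background, filter, probe rule, slide, reference libraries and leaving out each library. The number of arrays limits the precision. Some genes that the naming rule gives are not reported here.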

Additional observations from a re-analysis of the deposited data

How the results depend on the processing

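Alternatives were run for the F test, CT12 against CT0 and CT18 against CT6, not for the other 4 pairs. In these, 0 of the 8 genes were called, and the lowest adjusted p from limma was 0.0725 (Emx2, CT18 against CT6). The median difference of the 8 genes in CT12 mouse 11 was -5.17, and -4.96 after quantile normalization, -4.86 in the deposited table, -5.37 against the other CT12 libraries and -3.16 after normexp, which adds 50 to each intensity and so compresses dim values by construction. It ran from -5.22 to -5.15 with 1 library left out. All 8 were at least 4-fold lower in each setting except normexp (7). The genes called by the F test numbered 65, and 141 with normexp, 6 without the filter, 40 with all 12 libraries, and 4 to 98 with 1 library left out; they stayed within 1.5 times of 65 only without CT0 mouse 1, CT0 mouse 2 or CT12 mouse 12. CT12 against CT0 called 13, and 1 with quantile normalization, 1 in the deposited table, 3 without the filter, 6 with every probe on its own and 3 to 85 with 1 library left out. CT18 against CT6 called 296, and 50 with median centring, 33 without the filter, 646 with slide as a block, 32 with all 12 libraries and 23 to 286 with 1 library left out. The causes were not tested. Without CT12 mouse 10 or 12 the lone CT12 library is assumed to vary like the other groups. Signal over background limits 5 genes to bounds in CT12 mouse 11. No paired analysis was possible by mouse number because the circadian times share no mouse numbers; arrays are matched by slide, and that block gave the 646 calls above.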
